A study of Mus musculus with 2 samples.

Results

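The core pluripotency factors described here are the 7 genes Pou5f1, Sox2, Utf1, Tdgf1, L1td1, Sall4 and Lin28a. They were taken by exact match of the gene symbol, and each symbol was listed once among the 32285 genes of the deposited tables. Their levels were followed across 7 cell states of cultured mouse embryonic stem cells, with states set by marker genes that include none of the 7. In the GRCm38 annotation (GENCODE M21) all are protein-coding genes on autosomes: Pou5f1 at chr17:35506018-35510772, Sox2 at chr3:34650405-34652461, Utf1 at chr7:139943789-139945112, Tdgf1 at chr9:110939603-110946158 (minus strand), L1td1 at chr4:98726734-98738480, Sall4 at chr2:168748332-168767943 (minus strand) and Lin28a at chr4:134003330-134018841 (minus strand).

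Embryonic stem cells keep the ability to form all tissues of the embryo through a small set of regulators. Pou5f1 encodes Oct4, a POU-domain transcription factor that binds DNA together with the HMG-box factor Sox2, while Sall4 is a zinc-finger factor that associates with the NuRD chromatin complex. Utf1 is a chromatin-associated protein of undifferentiated cells. Tdgf1 encodes Cripto, the cell-surface co-receptor for Nodal. Lin28a is an RNA-binding protein that blocks maturation of let-7 microRNAs, and L1td1 is an RNA-binding protein derived from a LINE-1 transposon. Naive cells resemble the epiblast before implantation, and primed cells the epiblast after it.

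The cells came from 9 lines of the inbred mouse strain C3H/HeSn-Paf/J, 3 each derived from XX, XO and XY embryos, which were pooled before capture on the 10x Chromium platform. The library called time 1 was made at an early passage, and the library called time 2 after 10 further passages, a step meant to let aneuploid cells accumulate. Both were grown with serum and LIF on gelatin and irradiated mouse embryonic fibroblast feeders, so feeder cells are part of each library. No cell could be assigned to a line, and with 1 library of pooled lines per time point there is no replicate, so no test between groups was made and every interval below covers counting error only.

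After filtering, 23210 cells remained at time 1 and 25483 at time 2, with medians of 44365.5 and 50386 unique molecular identifiers (UMIs) per cell, and 157 cell barcodes occurred in both libraries. No cell annotation was used from the study; a cell was put in a state when the markers of that state reached 3 UMIs per 10000 with at least 3 markers detected, a cut set after the data were seen. The naive-like state (markers Esrrb, Klf2, Klf4, Nanog, Prdm14, Tbx3, Tfcp2l1 and Zfp42) held 12950 cells at time 1 and 19738 at time 2; its 10 leading genes by fold, among them Calcoco2 and Khdc3, included 0 of these markers at time 1 and 3 at time 2. The primed-like state (Fgf5, Fgf8, Otx2, Pou3f1, Zic2 and Lef1) held 3434 and 1585 cells. The rarer states were two-cell-like (103 and 48 cells), mesendoderm-like (433 and 425), endoderm-like (51 and 131), trophoblast-like (95 and 63) and feeder-like (441 and 521). Cells past both the naive and the primed cut (2307 and 511), past no cut (3313 and 2413) or past the cuts of several rare states (83 and 48) were left out of the comparisons. Levels are CPM, the summed counts of a state scaled to a total of 1e6 UMIs, and are compared for 1 gene across states, not between genes. A member was counted as lower or higher when its level plus 1 CPM differed at least 2-fold, and beside each count stands the share of all genes with at least 50 CPM in either group that differed as much.

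Sox2 and Utf1 were lower, and Tdgf1 and Lin28a higher, in the primed-like and mesendoderm-like cells of both libraries, so the promoter stretches of these 4 genes are shown. Each is the 150 bases before the annotated start, 5′ to 3′ on the strand of the gene, from RefSeq (GRCm38.p6); 6 of the 7 members had an entry. Capitals mark GC boxes (GGGCGG) and CCAAT boxes (CCAAT) on either strand.
Sox2, chr3:34649845-34649994, plus strand: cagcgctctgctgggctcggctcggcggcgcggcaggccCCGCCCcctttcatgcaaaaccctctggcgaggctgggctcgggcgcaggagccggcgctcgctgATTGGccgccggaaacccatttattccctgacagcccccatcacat
Utf1, chr7:139943639-139943788, plus strand: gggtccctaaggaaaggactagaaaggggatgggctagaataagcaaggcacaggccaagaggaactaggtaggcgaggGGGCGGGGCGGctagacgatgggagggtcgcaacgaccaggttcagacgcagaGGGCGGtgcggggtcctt
Tdgf1, chr9:110946159-110946308, minus strand: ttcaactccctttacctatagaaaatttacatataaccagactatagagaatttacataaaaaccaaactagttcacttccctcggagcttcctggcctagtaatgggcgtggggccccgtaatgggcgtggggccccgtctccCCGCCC
Lin28a, chr4:134018842-134018991, minus strand: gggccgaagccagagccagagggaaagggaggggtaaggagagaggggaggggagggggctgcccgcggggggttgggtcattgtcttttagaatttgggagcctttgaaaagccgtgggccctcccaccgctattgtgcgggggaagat
The Sox2 stretch ends before the RefSeq start, 411 bases upstream of the start in GENCODE. GC boxes were found once in the Sox2 and Tdgf1 stretches and 3 times in that of Utf1, where neighbouring matches share a base, and 0 times in that of Lin28a; 28.6% of all 32851 RefSeq promoters hold one in the same window. The Sox2 stretch also holds 1 CCAAT box, found in 24.5% of promoters. The octamer bound by POU factors (ATGCAAAT, in 0.998% of promoters) and the TATA box (TATAAA, in 7.57%) were found 0 times in the 4 stretches. GC content was 69.3% for Sox2, 62.0% for Utf1, 49.3% for Tdgf1 and 62.7% for Lin28a.

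Between naive-like and primed-like cells the members separated into those at nearly the same level and those that differed in opposite directions. Sox2 stood at 279 CPM (95% exact Poisson interval 277 to 280) in naive-like and 112 CPM (111 to 114) in primed-like cells at time 1, and at 302 CPM and 128 CPM at time 2. This made Sox2 the 1 member of 7 at least 2-fold lower in primed-like cells in each library, against 3.32% of 2832 genes at time 1 and 4.1% of 2901 genes at time 2. Its log2 ratio was -1.31 (95% counting interval -1.33 to -1.29) in the first library and -1.23 (-1.26 to -1.20) in the second. Its DNA-binding partner Pou5f1 differed far less, at 719 and 678 CPM in naive-like and primed-like cells of time 1 and at 789 and 758 CPM at time 2 (log2 ratios -0.08 and -0.06). Sall4, the zinc-finger factor, also differed little, with log2 ratios of -0.08 and -0.13.

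The RNA-binding factor Lin28a showed the opposite direction to Sox2. It stood at 70.2 CPM in naive-like and 147 CPM in primed-like cells at time 1, and at 77.7 and 137 CPM at time 2. Its log2 ratio was 1.05 (1.03 to 1.07) at time 1 and 0.81 (0.78 to 0.84) at time 2. It was the 1 member at least 2-fold higher at time 1 (2.79% of genes), a call near the limit that was lost under 5 other settings (lowest ratio 0.92, with the marker cut halved), and at time 2 the count was 0 (3.96% of genes). The Nodal co-receptor gene Tdgf1 was also higher in primed-like cells, at 822 against 468 CPM at time 1 and 605 against 400 CPM at time 2, with log2 ratios of 0.81 and 0.59. Utf1 was lower, at 398 against 553 CPM at time 1 and 417 against 533 CPM at time 2 (log2 ratios -0.47 and -0.35). L1td1 had log2 ratios of 0.23 and 0.15, the second of which turned to -0.08 with the doubled marker cut and is read as no direction. The median log2 ratio over the 7 members was -0.08 at time 1 and -0.06 at time 2, beside 0.09 and 0.05 over all genes tested, while single members ranged from -1.31 to 1.05 and from -1.23 to 0.81.

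**Figure D1:**
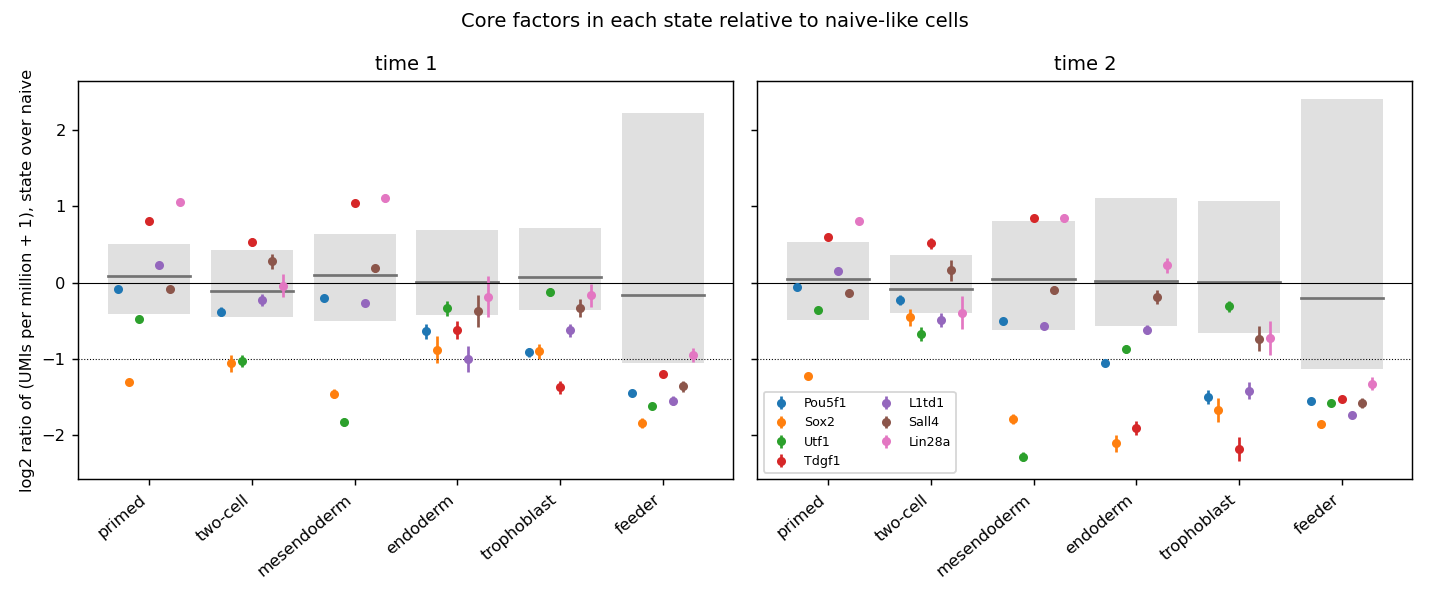
Log2 ratio of each core factor in 6 states over naive-like cells of the same library (left time 1, right time 2), with 95% counting intervals; grey boxes span the 10th to 90th percentile of all genes with at least 50 CPM and grey lines their median, and the dotted line marks a 2-fold lower level. Sox2 lies below -1 in primed-like, mesendoderm-like and feeder-like cells of both libraries, while Tdgf1 and Lin28a lie above 0 in primed-like and mesendoderm-like cells.

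The members were also followed along the naive and primed markers without a cut for either state. Naive-like and primed-like cells, those past both cuts and those past no cut, with at least 20 naive plus primed marker UMIs (16673 at time 1 and 21461 at time 2) were placed in 7 bins by the primed share of those UMIs. From the bin under 5% to the bin over 80% primed, Sox2 went from 354 to 105 CPM in the first library and from 330 to 118 CPM in the second, with each bin below the one before it. Lin28a stood at 60.8 CPM in the first and 153 CPM in the last bin of time 1, and at 69.7 and 140 CPM in those of time 2, with each bin above the one before it. Tdgf1 was likewise ordered, 379 CPM in the first and 860 CPM in the last bin of time 1, and 384 and 608 CPM in those of time 2. Sox2 was thus already lower at 10 to 20% primed share (273 CPM at time 1, 268 CPM at time 2), where Utf1 was still at 552 and 553 CPM. Utf1 stayed between 521 and 558 CPM up to a primed share of 40% in both libraries and was at 376 and 418 CPM in the last bin. Pou5f1 stayed between 651 and 734 CPM over all bins of time 1 and between 750 and 809 CPM over those of time 2. Median depth per bin lay between 46647 and 52874 UMIs at time 1 and between 51018 and 59224 UMIs at time 2.

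**Figure D2:**
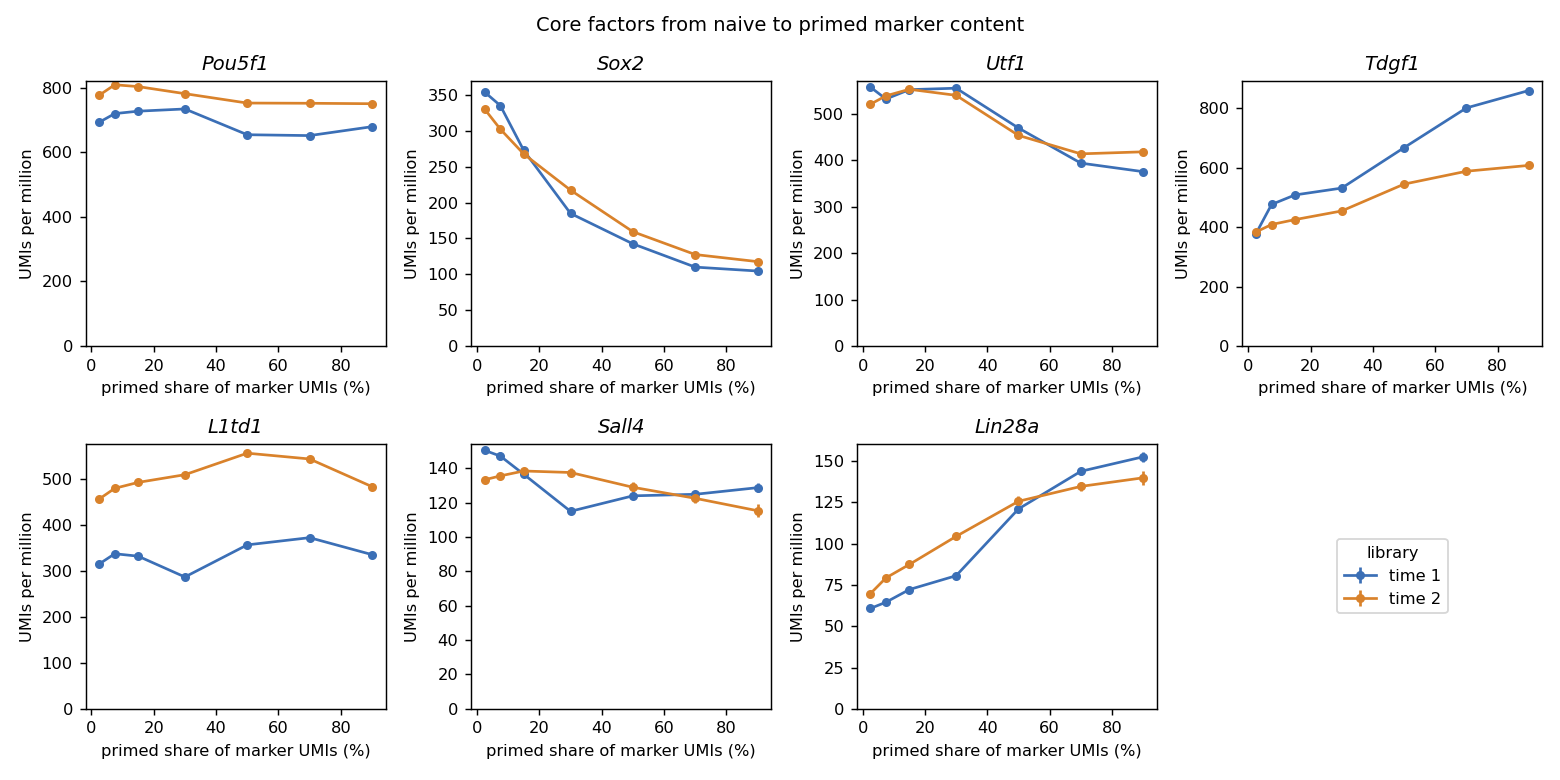
Level of each core factor (CPM, vertical axis from 0) against the primed share of naive plus primed marker UMIs per cell (%), in 7 bins per library; vertical bars are 95% exact Poisson intervals, mostly smaller than the points. Sox2 is lower and Lin28a and Tdgf1 higher in each successive bin, while Pou5f1 stays between 651 and 809 CPM.

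Mesendoderm-like cells, marked by T, Eomes, Mixl1, Gsc, Mesp1, Evx1, Lhx1 and Foxa2, had Utf1 far below and Tdgf1 above the naive-like level in both libraries. Utf1 stood at 155 CPM (149 to 160) in the library of time 1 and 108 CPM (104 to 113) in that of time 2, with log2 ratios over naive-like cells of -1.83 (-1.88 to -1.78) and -2.29 (-2.34 to -2.23). Sox2 stood at 101 and 86.4 CPM, with log2 ratios of -1.46 and -1.79. These were the 2 members of 7 at least 2-fold lower in each library, against 4.39% of genes at time 1 and 5.18% at time 2. Tdgf1 reached 969 CPM (956 to 982) in the library of time 1 and 722 CPM (711 to 733) in that of time 2, and Lin28a 153 and 141 CPM. Both were at least 2-fold higher at time 1, with log2 ratios of 1.05 and 1.11 (5.03% of genes), although Tdgf1 fell inside the limit under 4 other settings (lowest ratio 0.97), and at time 2 their log2 ratios of 0.85 and 0.85 left the count at 0 (7.43% of genes). The counting interval of the Lin28a level overlapped that of primed-like cells in both libraries, whereas the level of Utf1 was lower than in primed-like cells and that of Tdgf1 higher. Pou5f1 was lower than in naive-like cells but inside the 2-fold limit, at 627 and 558 CPM (log2 ratios -0.20 and -0.50), and L1td1 had log2 ratios of -0.26 and -0.57. Sall4 had 0.18 and -0.09, the second of which turned sign with the doubled marker cut. Mesendoderm-like cells also carried primed markers, summing to 993 and 752 CPM, above the 581 and 484 CPM of the primed-like cells themselves; 113 of 433 and 55 of 425 also passed the naive cut, and 418 and 390 the primed cut. In the 26 cells of time 2 past neither cut, the log2 ratios were -0.85 for Pou5f1, -2.10 for Sox2, -1.95 for Utf1, 0.22 for Tdgf1 and 0.52 for Lin28a, so that Tdgf1 was then below its ratio of 0.59 in primed-like cells. At time 1 under 20 such cells remained and no value was computed.

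Two-cell-like cells, which express Zscan4 and other genes of the early cleavage embryo, had lower Sox2 and Utf1 and higher Tdgf1. At time 1 Sox2 stood at 133 CPM and Utf1 at 270 CPM, with log2 ratios of -1.06 (-1.17 to -0.95) and -1.03 (-1.11 to -0.95), which put 2 of 7 members past 2-fold lower (0.463% of genes), just past the limit, and the count was 0 with the marker cut halved. At time 2 Sox2 stood at 220 CPM and Utf1 at 332 CPM, with log2 ratios of -0.46 and -0.68, and the count was 0 (0.283% of genes). Tdgf1 was higher, at 678 and 572 CPM, with log2 ratios of 0.53 and 0.51, and Sall4 stood at 165 and 151 CPM, its highest value among the 7 states, although at time 1 the counting interval overlapped that of mesendoderm-like cells. Pou5f1 had log2 ratios of -0.38 and -0.23 and L1td1 -0.23 and -0.49, while Lin28a had -0.04 and -0.39, the first of which turned sign without cells also past the naive or primed cut. No member was 2-fold higher (0 of 7 in each library, against 5.94% and 4.2% of genes). Of these cells 57 of 103 and 41 of 48 also passed the naive cut. In the 40 two-cell-like cells of time 1 that passed neither the naive nor the primed cut, the log2 ratio of Sox2 was -2.13 and that of Utf1 -1.21.

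Endoderm-like cells, marked by Gata4, Gata6, Sox7, Sox17, Dab2 and others, showed Sox2 and Tdgf1 far below the naive-like level at time 2, with a smaller difference for Sall4 and Lin28a. There Sox2 stood at 69.3 CPM (63.9 to 75.1) and Tdgf1 at 106 CPM (99.2 to 113), with log2 ratios of -2.11 and -1.91, and Pou5f1 stood at 380 CPM (log2 ratio -1.05), a call lost under 3 other settings (highest ratio -0.86, with doublets kept). These were 3 of 7 members at least 2-fold lower, against 4.18% of genes, while 0 were 2-fold higher (11.5% of genes). Lin28a stood at 91.2 CPM (85.0 to 97.7), above the 77.7 CPM of naive-like cells, and Sall4 at 118 CPM against 135 CPM. L1td1 and Utf1 were intermediate, with log2 ratios of -0.62 and -0.87. The members were then compared by endoderm marker score, in bins chosen after the data were seen. From the 49 cells with 3 to 10 marker UMIs per 10000 to the 27 cells with 30 or more, Sox2 went from 34.1% to 7.88% of the naive-like level and Tdgf1 from 47.5% to 7.81%. Over the same cells Sall4 went from 72.1% to 98.2% and Lin28a from 100.2% to 141%, and L1td1 stayed at 67.1% and 66.1%. Of the 131 cells, 65 also passed the naive cut. In the 64 cells past neither the naive nor the primed cut the log2 ratios were -3.66 for Sox2, -3.51 for Tdgf1, -1.81 for Pou5f1, -0.73 for Sall4 and -0.19 for Lin28a, so that Lin28a was then below the naive-like level and 5 of 7 members were at least 2-fold lower, against 6.50% of genes in that comparison. In the 37 cells with under 0.5 UMIs per 10000 of Nanog, Zfp42, Esrrb, Tfcp2l1 and Prdm14 together, Sall4 was at 36.3% and Lin28a at 78.2% of the naive-like level, against 2.54% for Sox2 and 4.97% for Tdgf1.

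The 51 endoderm-like cells of time 1 differed in makeup from those of time 2. Their macrophage markers (Lyz2, Csf1r, C1qa, C1qb, Cd68 and Tyrobp, all 6 detected) summed to 477 CPM, against 4.33 CPM with 2 of 6 detected at time 2, and their median depth was 27545 UMIs. L1td1 was the 1 member at least 2-fold lower, at 152 CPM and a log2 ratio of -1.01 (-1.18 to -0.84), against 1.24% of genes, and 0 were 2-fold higher (5.93% of genes). That call lies at the limit, and the count of lower members was 0 under 4 other settings and 2 under 4 more. Sox2 stood at 151 CPM and Tdgf1 at 304 CPM, with log2 ratios of -0.88 and -0.62. The other ratios were -0.64 for Pou5f1, -0.34 for Utf1, -0.37 for Sall4 and -0.18 for Lin28a, the last of which turned sign with the marker cut halved. Of these 51 cells, 32 also passed the naive cut and 11 the primed cut. Endoderm marker UMIs numbered 3 to 10 per 10000 in 37 of them. The parts of the macrophage-marker cells and of the cells past those cuts in these values were not tested.

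**Figure D3:**
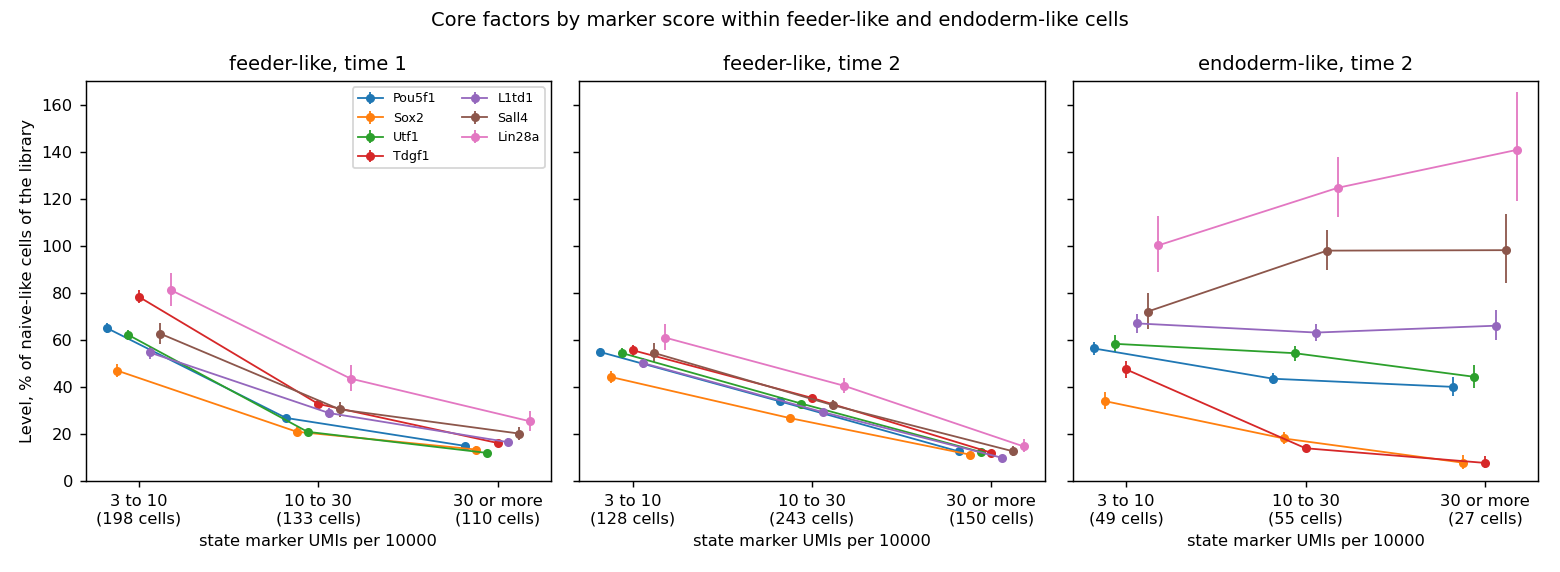
Level of each core factor as a percentage of the naive-like level of the same library, in feeder-like cells of time 1 and time 2 and endoderm-like cells of time 2, by the number of state marker UMIs per 10000; bars are 95% exact Poisson intervals of the summed counts. In feeder-like cells all 7 factors are lower at higher scores, whereas in endoderm-like cells Sox2 and Tdgf1 reach 7.88% and 7.81% while Sall4 and Lin28a reach 98.2% and 141%.

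Trophoblast-like cells, marked by Cdx2, Elf5, Gata3, Hand1, Ascl2, Plac1 and others, had Tdgf1 far below the naive-like level in both libraries, with a small difference for Utf1. Of the 11 trophoblast markers 10 were detected at time 1 (all but Tpbpa) and 8 at time 2 (all but Tpbpa, Prl3d1 and Prl2c2). Tdgf1 stood at 180 CPM (168 to 191) in the library of time 1 and 87.4 CPM (77.8 to 97.9) in that of time 2, with log2 ratios of -1.38 (-1.47 to -1.29) and -2.18 (-2.34 to -2.02). At time 1 it was the 1 member of 7 at least 2-fold lower (1.42% of genes). At time 2 Pou5f1 (277 CPM), Sox2 (93.9 CPM) and L1td1 (175 CPM) were also past 2-fold lower, with log2 ratios of -1.51, -1.68 and -1.42, so that the count was 4 (4.49% of genes). At time 1 Pou5f1 and Sox2 were just inside the limit, with log2 ratios of -0.92 and -0.90. Utf1 stood at 507 and 429 CPM, with log2 ratios of -0.12 and -0.31, and Lin28a had -0.17 and -0.73 and Sall4 -0.33 and -0.74. L1td1 had -0.63 at time 1. No member was 2-fold higher (0 of 7, against 5.51% and 11.2% of genes). Of these cells 48 of 95 and 23 of 63 also passed the naive cut; among the 45 cells of time 1 past neither the naive nor the primed cut, 4 members were at least 2-fold lower (2.63% of genes in that comparison) and the log2 ratios were -2.78 for Tdgf1, -0.48 for Utf1 and -0.37 for Lin28a. At time 2 the ratio of Tdgf1 in such cells was -2.63 in trophoblast-like, -3.51 in endoderm-like and -3.56 in feeder-like cells.

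Feeder-like cells, marked by collagen and other fibroblast genes, were lower than naive-like cells for every member. At time 1, 6 of 7 members were at least 2-fold lower (11.5% of genes), the exception being Lin28a with a log2 ratio of -0.96, and at time 2 all 7 were (15.1% of genes). None was 2-fold higher (0 of 7, against 19.8% and 20.7% of genes). Pou5f1 stood at 262 CPM (255 to 268) and 267 CPM (262 to 272), and Sox2 at 77.1 and 82.4 CPM, the member with the lowest ratio in both libraries (-1.84 and -1.86). The ratios of the other called members were -1.62 and -1.59 for Utf1, -1.55 and -1.74 for L1td1, -1.36 and -1.58 for Sall4, and -1.20 and -1.52 for Tdgf1, whose call at time 1 was lost under 2 other settings. Fibroblasts are generally taken to lack these factors. Of the feeder-like cells, 245 of 441 and 260 of 521 also passed the naive cut, with naive markers summing to 366 and 456 CPM. Without the cells also past the naive or primed cut, the log2 ratio of Lin28a at time 1 was -1.69, past the limit. Those of Pou5f1 were then -2.63 at time 1 and -3.51 at time 2. Pou5f1 was at 468, 193 and 108 CPM in cells with 3 to 10, 10 to 30 and 30 or more feeder marker UMIs per 10000 at time 1, and at 433, 268 and 99.8 CPM at time 2. In the 212 and 312 feeder-like cells with under 0.5 UMIs per 10000 of the 5 stem cell genes named above, Pou5f1 was at 88.4 and 59.8 CPM and Sox2 at 22.9 and 14.3 CPM, which is 12.3% and 7.59% of the naive-like level for Pou5f1 and 8.21% and 4.75% for Sox2. Utf1 was at 47.2 and 34.6 CPM in these cells, below the level of all mesendoderm-like cells. Tdgf1 was at 56.5 and 28.0 CPM, below that of all trophoblast-like cells. The mesendoderm-like and trophoblast-like cells were not selected in this way. Over all feeder-like cells the order was the opposite: Utf1 stood at 180 and 177 CPM, against 155 and 108 CPM in mesendoderm-like cells. Tdgf1 stood at 203 and 139 CPM, against 180 and 87.4 CPM in trophoblast-like cells. In the feeder-like cells with few stem cell UMIs all 7 members lay between 4.75% (Sox2) and 10.9% (Lin28a) at time 2. At time 1 they lay between 8.21% (Sox2) and 24.8% (Lin28a). The members were thus lower where a barcode carried fewer UMIs of other stem cell genes; whether those barcodes held more than 1 cell was not tested. Barcodes under 2000 UMIs, below the depth of any cell kept, held Pou5f1 at 952 CPM at time 1 and 699 CPM at time 2. Sall4 (280 and 162 CPM) and Lin28a (138 and 105 CPM) were above the naive-like level there in both libraries. Utf1 (375 and 296 CPM), Sox2 (253 and 201 CPM) and L1td1 (244 and 304 CPM) were below it in both. Tdgf1 (485 and 285 CPM), like Pou5f1, was above it at time 1 and below it at time 2. The part of free RNA in the feeder-like levels was not tested.

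**Figure D4:**
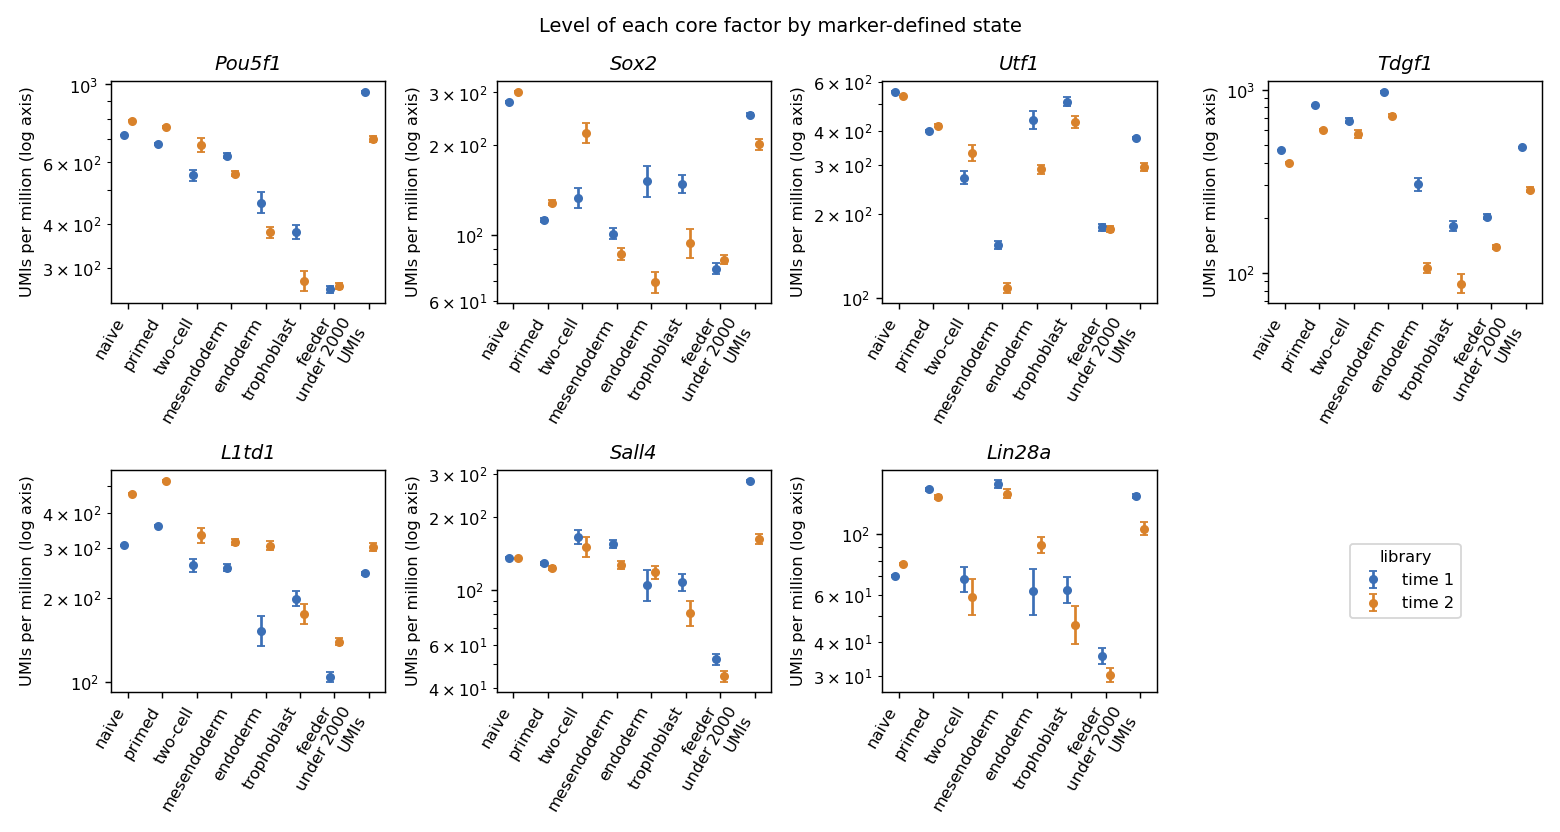
Level of each core factor (CPM, log axis, 1 panel per gene with its own scale) in 7 marker-defined states and in barcodes under 2000 UMIs, for time 1 (blue) and time 2 (orange), with 95% exact Poisson intervals. Pou5f1 is highest in naive-like cells among the states, Tdgf1 is highest in mesendoderm-like cells, Lin28a is highest in primed-like and mesendoderm-like cells, and L1td1 is higher at time 2 than at time 1 in naive-like and primed-like cells.

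Detection per cell was measured after each cell was thinned to 10000 UMIs, a depth below that of every cell. Pou5f1 had a UMI in 99.7% of naive-like cells at time 1 (99.6 to 99.8, Clopper-Pearson) and 99.9% at time 2, in 98.9% and 99.6% of primed-like cells and in 95.8% and 95.1% of mesendoderm-like cells. In feeder-like cells, which should lack it, the share was 73.7% and 59.1% (median depths before thinning 43181 and 64045 UMIs, against 44465 and 51143 in naive-like cells). Since many of those barcodes also passed the naive cut, the feeder-like cells with few stem cell marker UMIs are a second reference, with 50.9% and 35.9% for Pou5f1; what gives the UMIs there was not tested. Sox2 was detected in 88.8% and 91.9% of naive-like but 60.9% and 67.8% of primed-like cells, with 44.7% and 34.2% in feeder-like cells. Its 28.2% (20.7 to 36.8) in endoderm-like cells of time 2 lay between the 34.2% of all feeder-like cells and the 12.8% of those with few stem cell UMIs. The 33.6% of Tdgf1 there (25.6 to 42.4) and its 25.4% in trophoblast-like cells of time 2 (15.3 to 37.9) likewise lay between 37.8% and 14.4%, so these shares are read neither as expression nor as a difference from feeder-like cells. Lin28a was detected in 48.1% and 50.2% of naive-like cells and in 73.9% and 72.1% of primed-like cells, with 31.3% and 17.3% in feeder-like cells. Without thinning, Lin28a was detected in 88.7% and 92.1% of naive-like and 97.9% and 98.7% of primed-like cells, so thinning set much of the share without a UMI.

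The number of members with a UMI in the same thinned cell had a median of 6 in naive-like, primed-like and two-cell-like cells of both libraries. All 7 were detected together in 3340 of 12950 naive-like cells at time 1 and 5928 of 19738 at time 2, and in 28.2% and 28.9% of primed-like cells. With all UMIs the shares were 85.5% and 90.8% in naive-like and 89.7% and 93.1% in primed-like cells. The median was 4 in endoderm-like and trophoblast-like cells of time 2. In feeder-like cells the median was 4 at time 1 and 2 at time 2, and 8.84% and 26.1% held none of the 7. Among 12950 and 19738 naive-like cells only 3 and 1 held none.

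**Figure D5:**
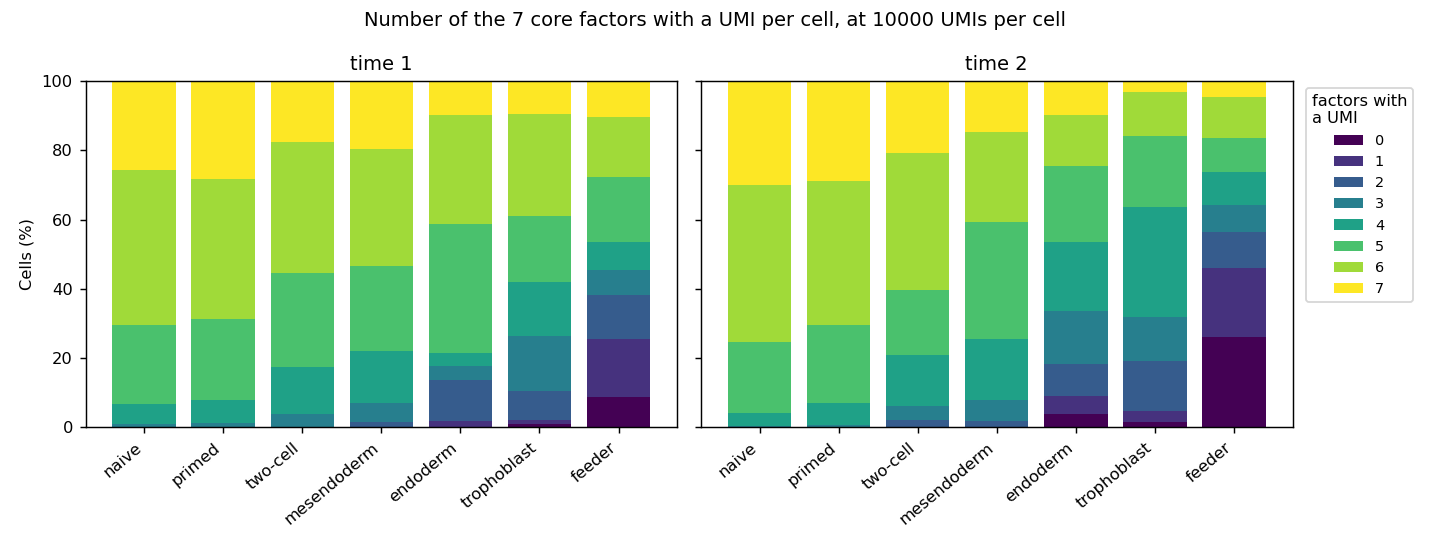
Share of cells (%) by the number of the 7 core factors with at least 1 UMI, after thinning each cell to 10000 UMIs, in 7 states of time 1 (left) and time 2 (right). The median is 6 factors in naive-like and primed-like cells, and 26.1% of feeder-like cells of time 2 hold none.

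Between the time points no member differed 2-fold in naive-like cells (0 of 7, against 3.44% of genes), in primed-like cells (0, 1.2%), in two-cell-like cells (0, 3.17%), in mesendoderm-like cells (0, 1.42%) or in feeder-like cells (0, with 6 of 7 members at or above 50 CPM, 1.41%). The feeder-like count depended on the cells kept: it was 3 without cells also past the naive or primed cut, and 3 with the top 20% of doublet scores removed. In the first setting the 3 were Tdgf1, Sall4 and Lin28a, counted with no minimum level. Sall4 and Lin28a were under 50 CPM there, so they fall outside the genes of which 2.37% differed as much. Pou5f1 turned from 0.03 to -0.75 and Sox2 from 0.10 to -0.84 in that setting, both inside the 2-fold limit. L1td1 had the largest difference among the members in naive-like cells, at 307 CPM at time 1 and 470 CPM at time 2, a log2 ratio of 0.61 (0.60 to 0.62). It was higher at time 2 in primed-like cells as well (361 and 521 CPM, 0.53), in two-cell-like cells (0.35) and in mesendoderm-like cells (0.31). Its ratios in feeder-like (0.41) and trophoblast-like cells (-0.18) turned sign under other settings and are read as no direction. Tdgf1 went the other way, with log2 ratios of -0.22 in naive-like, -0.44 in primed-like and -0.42 in mesendoderm-like cells. This direction was not shared by X-high and X-low cells, the classes described in the next paragraph. Tdgf1 stood at 480 and 380 CPM in X-low naive-like cells of time 1 and time 2. In X-high naive-like cells it stood at 457 and 506 CPM. In primed-like cells the values were 849 and 598 CPM in X-low and 598 and 633 CPM in X-high cells. The part of the mix of X classes in the Tdgf1 ratios was not tested. Pou5f1, Sox2, Utf1, Sall4 and Lin28a lay between -0.05 and 0.15 in naive-like cells, where the median of all genes was 0.11. Of these Sox2 (0.12) turned to -0.01 with the doubled marker cut and -0.05 without the most abundant markers. Sall4 (-0.01) turned to 0.03 with TMM scaling, so neither has a direction. Lin28a (0.15) was lower at time 2 within each X class of naive-like cells. It stood at 55.9 and 53.2 CPM in X-high cells and at 86.5 and 81.7 CPM in X-low cells. The Lin28a ratio is thus also read as no direction. In endoderm-like cells 3 members differed 2-fold (7.85% of genes): Sox2 (-1.11, inside the limit under 3 other settings), Tdgf1 (-1.51, inside it under 1) and L1td1 (1.00, inside it under 5), and the count was 1 with the marker cut halved. There the group of time 1 carried the macrophage markers given above. Endoderm marker scores of 3 to 10 were held by 37 of its 51 cells, against 49 of 131 at time 2. Time and makeup thus cannot be told apart. In trophoblast-like cells 1 member differed 2-fold (1.37% of genes), Tdgf1 with -1.03, just past the limit and inside it under several other settings. Without the cells that also passed the naive or primed cut the difference between time points was -0.08.

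The study is about X dosage, so cells with 0 UMIs of Ddx3y, Eif2s3y, Kdm5d and Uty, which lie on the Y chromosome, were divided by how many X-linked UMIs they held per autosomal UMI, scaled to the median of Y-positive cells, at 1.2. No member differed 2-fold between X-high and X-low cells of the naive-like state at time 1 (6252 and 4149 cells, 1.2% of genes) or time 2 (2791 and 14347 cells, 3.12%), or of the primed-like state at time 1 (269 and 2238 cells, 3.14%) or time 2 (72 and 1211 cells, 0.036%). These shares of all genes include X-linked genes, whose UMIs set the classes, whereas the members are autosomal. Lin28a had the largest difference among the members in naive-like cells, at 55.9 CPM in X-high and 86.5 CPM in X-low cells at time 1 and at 53.2 and 81.7 CPM at time 2, log2 ratios of -0.62 (-0.65 to -0.59) and -0.61 (-0.64 to -0.58). Sox2 was higher in X-high naive-like cells, at 307 against 268 CPM at time 1 and 384 against 290 CPM at time 2 (0.19 and 0.41), and Utf1 was lower in both (-0.20 and -0.25). The naive marker score also differed, with medians of 7.16 UMIs per 10000 in X-high and 6.62 in X-low cells at time 1 and 12.3 and 9.33 at time 2, and its part in these ratios was not tested. The classes come from pooled lines, so X dosage and line cannot be told apart.

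Of 8 genes known as Oct4 and Sox2 targets, Nanog and Zfp42 are also naive markers, so their difference from naive-like cells was set by how the cells were chosen and they were left out of the counts. The other 6 were Fgf4, Fbxo15, Lefty1, Nr0b1, Gdf3 and Dppa4, of which 4 reached 50 CPM in each comparison at time 1 and 6 at time 2. Fgf4 and Nr0b1 were tested at time 2 only, where their level in naive-like cells put them past the minimum. The counts of the libraries thus cover different genes. In primed-like cells 2 of 4 were at least 2-fold lower at time 1 (Fbxo15 -2.69, Dppa4 -1.11) and 4 of 6 at time 2 (Fgf4 -1.52, Fbxo15 -2.97, Nr0b1 -3.24, Dppa4 -1.15), beside 3.32% and 4.1% of all genes. Lefty1, a Nodal inhibitor, was 2-fold higher there at time 2 (1.92), beside 3.96% of all genes. In mesendoderm-like cells 3 of 4 (Fbxo15, Gdf3 and Dppa4) and 5 of 6 were lower, beside 4.39% and 5.18% of all genes, and Lefty1 was the sixth at time 2, higher (1.09) beside 7.43%. In two-cell-like cells 0 of 4 were lower at time 1 and 1 of 6 at time 2 (Nr0b1 -1.06), beside 0.463% and 0.283% of all genes, and Fbxo15 was higher in both libraries (2.12 and 1.88), beside 5.94% and 4.2%. In endoderm-like cells 1 of 4 was lower at time 1 (Fbxo15) and 5 of 6 at time 2, all but Lefty1, beside 1.24% and 4.18% of all genes. In trophoblast-like cells 3 of 4 were lower at time 1 (Fbxo15, Lefty1 and Gdf3) and 4 of 6 at time 2 (Fgf4, Fbxo15, Nr0b1 and Gdf3), beside 1.42% and 4.49% of all genes. In feeder-like cells 4 of 4 were lower at time 1 and 5 of 6 at time 2, the exception being Lefty1, beside 11.5% and 15.1% of all genes.

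In the Nodal pathway, which signals through the co-receptor encoded by Tdgf1, 5 of 12 genes reached 50 CPM in primed-like against naive-like cells at time 1 and 6 at time 2, with 0 lower in each (3.32% and 4.1% of all genes) and 0 and 1 higher (Lefty1, beside 2.79% and 3.96% of all genes). In mesendoderm-like cells 6 of 12 reached it in each library, 2 were higher at time 1 (the receptor Acvr2b 1.08 and the signal mediator Smad4 1.11) and 4 at time 2, beside 5.03% and 7.43% of all genes, and the ligand gene Gdf3 was the 1 lower in each (-1.32 and -1.97), beside 4.39% and 5.18%. The 4 were Acvr2b, Smad4 and the inhibitor genes Lefty1 and Lefty2. Gdf3 and Lefty1 are also among the Oct4 and Sox2 targets above, so the counts of both lists share these genes. Nodal, Acvr2b, Smad4 and Smad2 were under 50 CPM in naive-like cells of both libraries. They were counted only where the other state reached that level, so they could not be called lower. The counts of lower genes thus rest on the other genes tested. In two-cell-like cells 0 of 4 and 0 of 3 genes differed 2-fold, beside 0.463% and 0.283% of all genes lower and 5.94% and 4.2% higher. In endoderm-like cells 0 of 4 differed 2-fold at time 1, beside 1.24% of all genes lower and 5.93% higher. At time 2, 1 of 5 was lower (Gdf3 -1.98, beside 4.18% of all genes) and 2 were higher (Lefty2 2.25 and Smad2, beside 11.5%). In trophoblast-like cells 3 of 3 were lower at time 1 (Gdf3 -1.39, Lefty2 -1.21 and Lefty1) and 2 of 4 at time 2 (Gdf3 -1.86, Lefty2 -2.03), beside 1.42% and 4.49% of all genes, and Smad4 was higher at time 2, beside 11.2%. In feeder-like cells 3 of 3 were lower at time 1 (Gdf3 -1.64, Lefty2 -1.55, Lefty1 -1.24) and 2 of 3 at time 2 (Gdf3 -1.54, Lefty2 -1.68), beside 11.5% and 15.1% of all genes.

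Of 10 genes listed with Lin28a as RNA-binding partners or let-7 targets, 7 reached 50 CPM in mesendoderm-like against naive-like cells at time 1 and 6 at time 2. There Hmga2, a let-7 target, was higher (3.65 and 4.43), as was the RNA-binding gene Igf2bp3 (past 2-fold in each library). This made 2 higher, beside 5.03% and 7.43% of all genes, and none was lower, beside 4.39% and 5.18%. Hmga2 and Tut4 were under 50 CPM in naive-like cells of both libraries, and Igf2bp2 and Igf2bp3 in those of time 1. In those comparisons each was tested only through the other state, so it could not be called lower. That none was lower in mesendoderm-like cells thus rests on the remaining genes tested. Hmga2 was also higher in endoderm-like cells (3.04 and 4.41), where 5.93% and 11.5% of all genes were higher, and in feeder-like cells (5.57 and 6.22), where Lin28a was lower. In feeder-like cells it was the 1 higher of 4 and of 5 tested, a share near the 19.8% and 20.7% of all genes. Igf2bp3 was also higher in primed-like cells of time 1 (1.10), the 1 of 5 tested there, beside 2.79% of all genes. At time 2, 0 of 4 tested in primed-like cells were higher, Igf2bp3 among them, beside 3.96% of all genes. Mycn was the 1 gene of the list lower in trophoblast-like cells (-1.14 among 4 tested at time 1, -1.51 among 5 at time 2), beside 1.42% and 4.49% of all genes. In feeder-like cells 2 of 4 were lower at time 1 (Trim71 -1.12, Mycn -1.49) and 3 of 5 at time 2 (Trim71 -1.66, Mycn -1.56, Igf2bp1 -1.38), beside 11.5% and 15.1% of all genes. Of 11 NuRD subunits and partners of Sall4, 9 and 10 reached 50 CPM in mesendoderm-like against naive-like cells. Mta3 was the 1 that differed 2-fold there (-1.37 and -1.32), beside 4.39% and 5.18% of all genes lower. In endoderm-like cells of time 2 Mta3 was the 1 of 9 lower (-1.14), beside 4.18% of all genes. In feeder-like cells it was the 1 of 9 and 1 of 8 lower (-1.29 and -1.17), a share near the 11.5% and 15.1% of all genes. Of 11 relatives of the POU, Sox, Sall and Lin28 families that are not state markers, Lin28b among them, 0 reached 50 CPM in any comparison of a state with naive-like cells.

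Likeness of pattern was measured as Pearson r of log2(CPM + 1) over the 14 points given by 7 states in 2 libraries, among 4282 genes with at least 50 CPM in a point. The points share 2 libraries, so r is a description with no test. The genes most like Pou5f1 were Ssbp1 (0.97), Naa10 (0.97) and Dpy30 (0.96), and the most like Sox2 were Rasgrp2 (0.93), Chchd10 (0.93) and Pycard (0.91). For Utf1 they were Zfp462 (0.88), Cisd1 (0.85) and Syngr1 (0.84), and for Tdgf1 Hdac2 (0.92), Eif1ax (0.91) and Tcea3 (0.90). For L1td1 they were Cep57 (0.96), Twistnb (0.95) and Rbm26 (0.94), for Sall4 Ccdc43 (0.96), Elovl6 (0.96) and Ewsr1 (0.95), and for Lin28a Suclg2 (0.96), Ndufaf6 (0.96) and Gm42047 (0.95). No member was among the 3 genes nearest another member. Within the set, Pou5f1 was most like L1td1 (0.86) and Sall4 (0.84), at ranks 62 and 97 among all genes compared with it. Sox2 was about equally like Utf1 and Pou5f1 (0.66 for each), at ranks 238 and 248. Sox2 and Lin28a had an r of 0.02.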

How the data were processed

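Single-cell RNA was measured in 2 libraries of pooled embryonic stem cell lines, 1 per time point. The deposited files hold raw UMI counts per gene and barcode, whole numbers with no normalization. The submitters' processing notes name bcl2fastq 2.20.0.422, Cell Ranger 6.1.2 and the mouse builds mm10 and GRCm38; filters before deposit are not given in the sources used here. The libraries held 145288 and 52242 barcodes and 1735810403 and 1843588321 UMIs. Samples were grouped by the time point in their labels.

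Barcodes were kept with at least 0.1 times the UMIs of the 99th percentile of the 20000 largest (18314.9 and 18645.1 UMIs), a minimum of 1000 genes and a mitochondrial share of up to 10%, which left 25736 and 28249. The 10% with the highest Scrublet doublet scores (scanpy 1.11.5, expected rate 20%) were then removed, 2526 and 2766 barcodes. This doublet rule was chosen after member levels by state had been seen. The default expected rate of 5% had marked 0 and 1 barcodes, runs at another rate were not finished, and the automatic threshold at 20% marked 7.58% and 4.60% of barcodes; that threshold, removal of the top 20% and no removal are alternatives.

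Counts were summed per state and library and divided by the summed UMIs (CPM). Ratios are log2 of CPM plus 1, so those of low genes are understated. Levels have exact Poisson and shares exact Clopper-Pearson 95% intervals, for counting error alone. No test was made, since each group is 1 library. The background over all genes used those with at least 50 CPM in either group. The ratio calculation was tested on simulated data. All 7 members were named in every state with at least 20 cells, with the 3 genes most like each by Pearson r, and genes of 5 further lists where they passed 2-fold, apart from those that are state markers, a choice made after the data were seen. The members and lists were chosen with earlier results of these data known. Python 3.11.15, numpy 2.4.6, scipy 1.17.1, pandas 2.3.3, matplotlib 3.10.9, R 4.3.3 and edgeR 4.0.16 (TMM scaling as an alternative only) were used.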

Additional observations from a re-analysis of the deposited data

Results flagged for a closer look

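Sall4 had opposite directions in mesendoderm-like over naive-like cells of the 2 libraries, its log2 ratio being 0.18 in the library of time 1 and -0.09 in that of time 2; with the doubled marker cut the second was 0.09, the direction of the first. Between X-high and X-low cells, directions also differed between the libraries. In naive-like cells Tdgf1 had log2 ratios of -0.07 at time 1 and 0.41 at time 2, and Sall4 had 0.11 and -0.18. In primed-like cells Utf1 had 0.62 and -0.14, Tdgf1 -0.50 and 0.08, and Lin28a -0.42 and 0.13. The median primed marker score of these primed-like cells was 4.31 in X-high and 5.57 in X-low cells at time 1. At time 2 it was the higher in X-high cells, at 5.27 against 4.46 in X-low cells. The primed-like X-high group of time 2 held 72 cells. With the X threshold at 1.4 in place of 1.2 that group held 10 cells, and Utf1 had 0.66 at time 1 and 0.70 at time 2 and Lin28a -0.43 and -0.61, so that neither differed in direction; Tdgf1 had -0.51 and 0.11. The median primed scores of X-high and X-low primed-like cells at 1.4 were 4.25 and 5.52 at time 1. At time 2 they were 4.94 and 4.48, so the order of the scores still differed between the libraries. The part of the primed score in the primed-like ratios was not tested. In naive-like cells the directions at 1.4 were as at 1.2, with -0.11 and 0.48 for Tdgf1 and 0.16 and -0.21 for Sall4. With 1 library per time point, none of these differences was tested.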

How the results depend on the processing

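Over 310 counts of members recomputed under other settings, 270 stayed within 1.5 times of the value given and 40 did not; no ratio of 2-fold or more changed sign. Among the 1155 recomputed ratios of a state to naive-like cells 5 changed sign, and among the 665 between time points 29 did, 18 of them in feeder-like cells. Below, the cause was not tested.

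The Tdgf1 difference between time points in trophoblast-like cells lies at the limit: the count of 1 became 0 with a halved or doubled marker cut, without the most abundant marker of each list, with the mitochondrial limit of 20%, with doublets kept, with TMM scaling, with a pseudocount of 10 CPM and, chosen after seeing the data, with the top 20% of doublet scores removed, the automatic doublet threshold, or no cells also past the naive or primed cut. The count of members lower in endoderm-like cells of time 1 (1, L1td1) became 0 with the halved cut, the mean of per-cell CPM, a pseudocount of 10 CPM or the top 20% removed, and 2 with the doubled cut, without the top marker, with cells past several cuts kept or with TMM. For two-cell-like cells of time 1 the count of 2 became 0 with the halved cut, and 1 without the top marker or with a minimum of 5000 UMIs. For trophoblast-like cells of time 1 it became 4 with the doubled cut, 3 without the top marker, 3 with TMM and 4 without cells also past the naive or primed cut, which also gave 5 in endoderm-like cells of time 2. Between time points the endoderm-like count of 3 became 1 with the halved cut. The feeder-like count of 0 became 1 with the mean of per-cell CPM, 3 with the top 20% removed and 3 without cells also past the naive or primed cut.

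Counts of members with a UMI in at least 50% of cells moved with depth. Thinned to 5000 UMIs they were 4 in mesendoderm-like and 3 in endoderm-like cells of time 1, and 4 in primed-like, 3 in mesendoderm-like, 3 in endoderm-like and 0 in feeder-like cells of time 2. With all UMIs they were 7 in feeder-like cells of time 1, and 7 in trophoblast-like and 6 in feeder-like cells of time 2, where doublets kept gave 2. A lower minimum CPM alters the background over all genes and which genes of the further lists are counted, while the 2-fold calls of the members use no minimum. TMM put the median log2 ratio of all genes at -0.15 in two-cell-like cells of time 1 and at -0.22 in trophoblast-like cells of time 2. No paired analysis was possible because each time point is 1 library.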
